A study of Ovis aries with 5 samples.

Results

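GLI2 and GLI3 are zinc finger transcription factors at the end of the Hedgehog signalling pathway, and each is the closest gene listed for a selection sweep of domestic sheep. The chromatin around these sweeps was described from ChIP-Seq of perirenal adipose tissue, the fat around the kidney, of wild type, pure bred Merino fetuses without treatment at 132 days of gestation in the labels. Members were all peaks and regions within 250 kb of the sweep region of GLI2 (chromosome 2, 184990001 to 185040000, Oar_v3.1) or of GLI3 (chromosome 4, 78890001 to 79000000). The windows are 550 and 610 kb long, and they held 52 and 48 entries, 100 of the 296523 in the 7 lists used here. These are the peak lists of 4 libraries, H3K4me3 and H3K27ac from each of 2 fetuses called replicates 1 and 2, and 3 joint lists of regions present in both replicates, for H3K4me3, H3K27ac and H3K27me3. Each library was compared by the authors with 1 input library pooled from the fetuses. The methods differ from the labels in giving 3 animals for H3K4me3, where 2 are labelled, and a slightly earlier day of gestation. The methods give 2 animals for H3K27me3, and whether they are the same 2 is not stated in the sources used here. Whole tissue was used, so fewer cells with a mark and less of the mark per cell cannot be told apart, and the markers of fat cells were not analysed here.

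In the Hedgehog pathway, a secreted ligand binds the receptor PTCH1, which frees the membrane protein SMO to act on the GLI proteins. GLI2 is known mainly as the activator of Hedgehog target genes, while GLI3 is cut to a repressor in cells without ligand. In fat, the pathway is known to hold back the formation of adipocytes from their precursors. H3K4me3 is found at gene starts and H3K27ac at active gene starts and enhancers, while H3K27me3 is laid down by Polycomb at repressed genes. H3K4me3 and H3K27me3 together are known from the starts of developmental genes that are silent but poised.

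At the lower edge of the GLI2 sweep region, H3K4me3 came with H3K27me3 and without H3K27ac. The only H3K4me3 region of the joint list in the locus ran from 184981595 to 184984853, 5.15 kb below the sweep region. Its peak had 617 tags and a fold enrichment over the input of 43.1 in replicate 1, and 438 tags and 43.7 in replicate 2. These folds were nearly equal, and 67.1% and 62.1% of the autosomal peaks of the same libraries had a lower one. A pair of H3K27me3 regions, from 184978134 to 184982159 and from 184982527 to 184990952, covered 2892 of its 3259 bp. The second of these, 8426 bp long, was the longest H3K27me3 region of the locus, longer than 96.0% of the autosomal ones, and reached 952 bp into the sweep region. The nearest H3K27ac region lay 69.5 kb away. Among all 15350 autosomal H3K4me3 regions, 12.9% overlapped an H3K27me3 region and 10.3% did so without an H3K27ac region, while 56.7% overlapped H3K27ac and 33.0% neither mark.

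A further H3K4me3 peak inside the same long H3K27me3 region was found in both animals but is not in the joint list. In replicate 1 it spanned 184987065 to 184988429 and in replicate 2 184987117 to 184988427, next to the sweep region. It held 270 and 226 tags, and its fold enrichments of 56.4 and 55.8 were the highest of any H3K4me3 peak in the locus in either library. Its false discovery rate (FDR), the authors' estimate from calls with library and input exchanged, was 0.22% in replicate 1 and 1.69% in replicate 2. The joint list holds peaks with an FDR of at most 1% in both replicates, so replicate 2 alone kept this peak out of it.

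**Figure D1:**
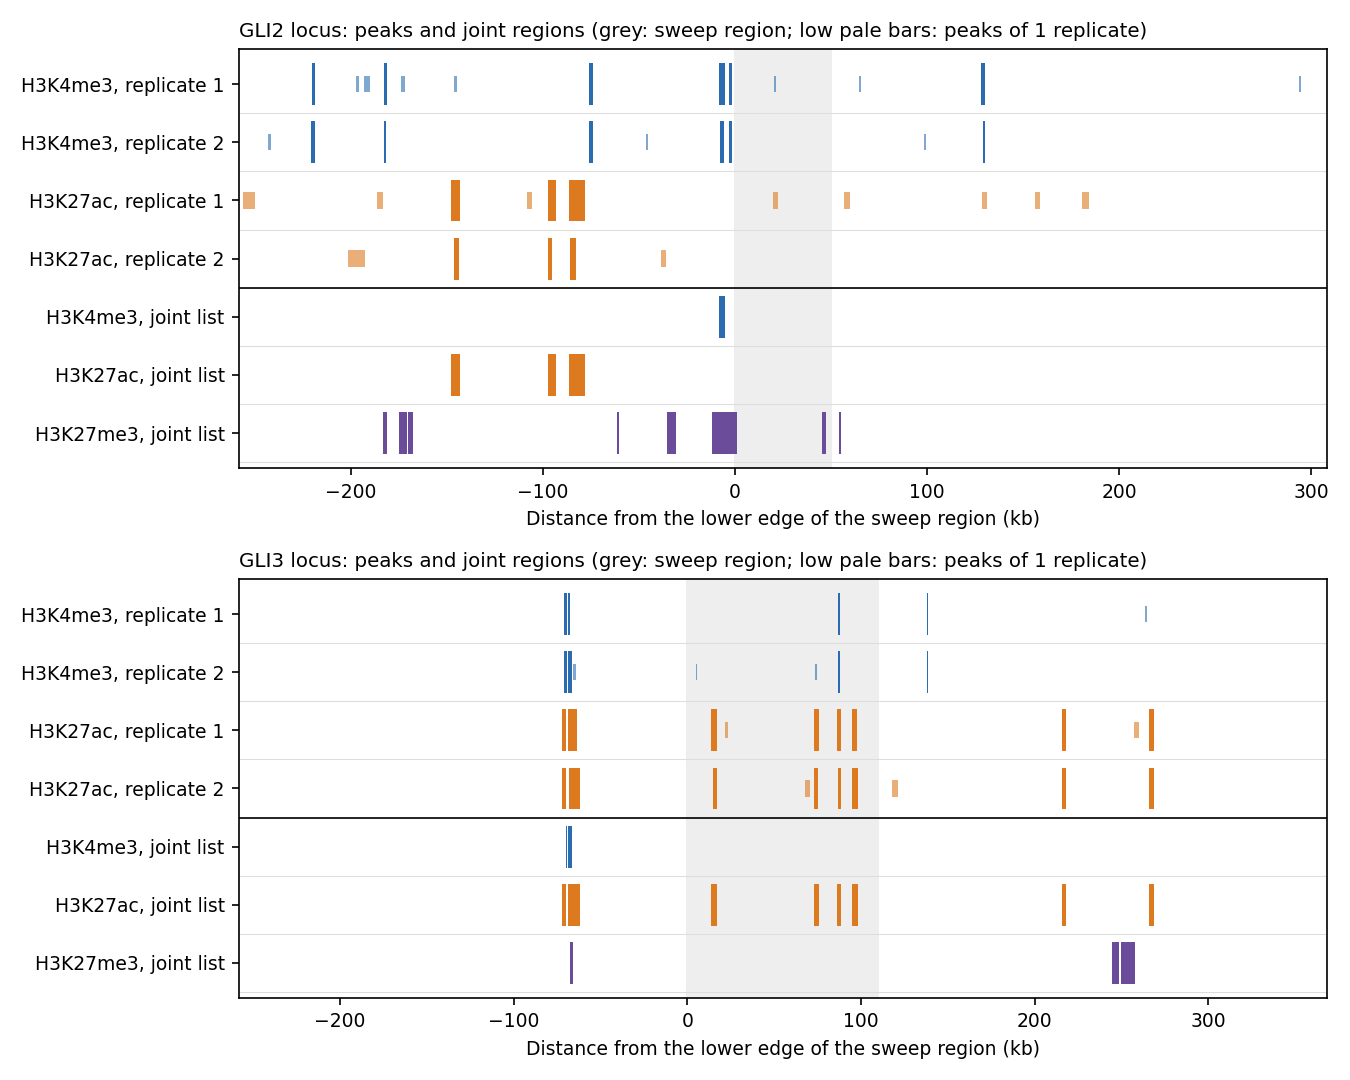
Positions of the peaks of the 4 libraries (upper rows) and of the regions of the 3 joint lists (lower rows) at the GLI2 and GLI3 loci, in kb from the lower edge of the sweep region, which is grey; tall bars are peaks that overlap a peak of the other replicate and low pale bars are peaks of 1 replicate. The GLI2 sweep region holds 2 H3K27me3 regions and no joint H3K27ac region, and the GLI3 sweep region holds 4 H3K27ac regions and no H3K27me3 region.

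H3K27me3 was spread over the GLI2 locus in 9 regions, of which 6 lay wholly below the sweep region, 2 overlapped it and 1 lay above it. They covered 30.7 kb, or 5.58% of the window, against 1.97% of the autosomes. Of the 9 regions, 2 overlapped an H3K4me3 region, 0 an H3K27ac region and 7 neither, where the autosomal shares were 14.6%, 4.61% and 83.6%. The farthest group, 3 regions within 15.6 kb from 184806987 to 184822561, lay more than 167 kb below the sweep region. Isolated regions from 184928543 to 184929910 and from 184954831 to 184959473 followed, and then the pair that meets the H3K4me3 region. Inside the sweep region a 2488 bp region ran from 185035120 to 185037607, and just above it a region of 1087 bp from 185044209 to 185045295. From there to the upper end of the window, 245 kb held no region of any of the 3 joint lists. The upper flank is the side on which the sweep table places GLI2, and by its listed distance the end of the gene that faces the sweep region falls in this stretch. Gene ends were known from that table only, and another gene model may reach nearer to the sweep region.

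H3K27ac at the GLI2 locus was limited in the joint list to 3 regions, all below the sweep region and none of them overlapping H3K4me3 or H3K27me3, as was so for 74.7% of the autosomal H3K27ac regions. Over the region from 184842487 to 184847016, the peak of replicate 1 held 743 tags at a fold of 25.2 and that of replicate 2 held 347 at 24.4. The next, from 184892656 to 184896931, had 576 and 347 tags, with folds of 24.2 and 25, and overlapped a smaller sweep region listed from 184870001 to 184900000. For both of these the folds were close between animals and near the autosomal medians of 24.7 in replicate 1 and 24.6 in replicate 2. The longest, from 184903639 to 184912090, was less alike in the animals, with 1226 tags and a fold of 22.3 in replicate 1 and 348 tags and 15.8 in replicate 2. In replicate 2 its peak was 2887 bp long against 8452 bp in replicate 1. The longest H3K27ac peak of replicate 2, 9024 bp from 184788507 to 184797530 with 1177 tags and a fold of 19.2, had no counterpart in replicate 1.

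The 2 animals shared few of the H3K27ac peaks at GLI2. They numbered 11 in replicate 1 and 5 in replicate 2, and 3 of each were matched in the other animal. At GLI3, 8 of 10 peaks of each animal were matched. Over the autosomes, 76.9% of the H3K27ac peaks of replicate 1 and 81.0% of those of replicate 2 overlapped a peak of the other replicate. All of the H3K27ac peaks of both loci were within the FDR of 10% of the joint list, as were 96.9% and 96.2% of the autosomal ones. H3K4me3 peaks at GLI2 numbered 14 and 9, with 7 and 6 matched in the other animal (GLI3: 5 of 6 and 5 of 8), against 75.5% and 65.8% on the autosomes. At GLI2, 3 in replicate 1 and 1 in replicate 2 had an FDR of at most 1%, and at GLI3 3 and 2, where the autosomal shares were 48.7% and 34.5%. A peak missing from a list means that no peak passed the p-value limit of the authors there, not that the mark was absent.

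Inside the GLI2 sweep region itself, active marks were called in replicate 1 alone. An H3K4me3 peak of that animal ran from 185010233 to 185011508, with 161 tags, a fold of 23.5 and an FDR of 1.51%. It lay within an H3K27ac peak of the same animal from 185009683 to 185012699, with 426 tags, a fold of 18 and an FDR of 5.41%. Replicate 2 had 0 peaks of either mark in the sweep region. Above it, H3K4me3 was called in both animals near 185119037, with folds of 32.4 and 29.4 for 2 adjoining peaks of replicate 1 and 26.4 for the peak of replicate 2, at FDRs of 1.75%, 1.4% and 2.91%. An H3K27ac peak from 185118897 to 185121341 (320 tags, 22.1-fold) overlapped these in replicate 1, and replicate 2 had none there. In the same animal, 4 of the 14 H3K4me3 peaks of replicate 1 at GLI2 overlapped an H3K27ac peak and 0 of the 9 of replicate 2 did, and at GLI3 3 of 6 and 5 of 8, against 49.8% and 51.0% over the autosomes.

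H3K4me3 peaks at GLI2 overlapped H3K27me3 regions in 4 of 14 cases in replicate 1 and in 3 of 9 in replicate 2. At GLI3, 1 of 6 and 2 of 8 did, against 16.0% and 11.2% of the autosomal peaks of replicates 1 and 2. Beside those at the edge of the GLI2 sweep region, a peak at GLI2 from 184807118 to 184808718 was found in both animals, with folds of 16.8 and 21.4. Another from 184816062 to 184818087, with 314 tags and a fold of 25, was called in replicate 1 only. Both are in the farthest H3K27me3 group below the GLI2 sweep region, and their folds were under the autosomal medians of 30.5 and 34.8. With so few peaks, the shares at the loci and on the autosomes were not tested against each other.

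In the joint list, the GLI3 locus had its H3K4me3 in a compact group below the sweep region. Of its 2 regions, 1 overlapped both H3K27ac and H3K27me3 and 1 overlapped neither. On the autosomes, 56.7% of the H3K4me3 regions overlapped H3K27ac. Single libraries also had H3K4me3 peaks in and above the sweep region. The joint list held 2 H3K4me3 regions, from 78820231 to 78820767 and from 78821182 to 78823790, about 69.2 and 66.2 kb from the sweep region. The former was short, at 537 bp, yet had the highest fold enrichment of any peak at the 2 loci, 67.3 in replicate 1 with 175 tags and 73.6 in replicate 2 with 186 tags. Of the autosomal peaks, 94.4% and 85.1% had a lower fold. The latter had 357 and 619 tags and folds of 53.2 and 66.3, higher in replicate 2, where its peak was also longer. A further peak in both animals, from 78819017 to 78820073 in replicate 1, had folds of 49.3 and 56.6 and stayed outside the joint list, at FDRs of 0.71% and 1.43%.

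These peaks were flanked and overlapped by H3K27ac. The region from 78821277 to 78827928, at 6652 bp the longest H3K27ac region of the locus, covered 2514 of the 2609 bp of the longer H3K4me3 region, with 588 and 771 tags and folds of 20.4 and 22.8. The other, from 78817593 to 78820153, ended 78 bp before the shorter H3K4me3 region, with 281 and 277 tags and folds of 28.6 and 26.7. It overlapped a smaller sweep region listed for GLI3 from 78800001 to 78820000. H3K27me3 was present there too, in 1 region of 1832 bp from 78822414 to 78824245 that overlapped 1377 bp of the longer H3K4me3 region. All 3 marks thus met here, and of the autosomal regions of each list, 2.53% for H3K4me3, 1.12% for H3K27ac and 2.86% for H3K27me3 overlapped both other marks. The remaining 7 H3K27ac and 3 H3K27me3 regions of the locus overlapped neither other mark. On the autosomes, 24.6% of the H3K27ac regions overlapped H3K4me3 and 1.78% overlapped H3K27me3. Among the H3K27ac peaks of single libraries, 2 of 10 in replicate 1 and 1 of 10 in replicate 2 at GLI3 overlapped an H3K27me3 region, and 1 of 11 and 0 of 5 at GLI2, against 2.18% and 1.4%. The marks were measured in whole tissue, and whether they sat on the same DNA molecules was not tested.

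The GLI3 sweep region held 4 H3K27ac regions of the joint list and no joint region of H3K4me3 or H3K27me3, where the GLI2 sweep region held 2 H3K27me3 regions and no H3K27ac. Of the 633 other domestic sweep regions, 38.2% overlapped an H3K27ac region, 20.7% an H3K4me3 region and 11.1% an H3K27me3 region. These shares are not matched for length, and a longer sweep region has more room for an overlap. The GLI2 and GLI3 sweep regions, of 50 and 110 kb, are both longer than the average given in the paper. The 4 regions covered 12.2 of the 110 kb, or 11.1%, against 7.47% of the autosomes. From the lower end they ran from 78903387 to 78906971, from 78962892 to 78965565, from 78976239 to 78978714 and from 78984921 to 78988413, and each was called in both animals.

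Fold enrichments of these regions ran from the lowest percentiles of their libraries to near the upper quartile. The region from 78962892 had 366 and 292 tags and folds of 19.3 in replicate 1 and 29.5 in replicate 2, higher than 14.3% and 74.0% of the autosomal peaks and the largest difference between animals in this group. Folds of 22.7 and 20.8 were found for the region from 78976239, with 362 and 270 tags. For those from 78903387 and 78984921 the folds were 16.2 and 20.8, and 16.7 and 15.4, low in their libraries. The region from 78984921 had a higher fold than only 3.12% of the autosomal peaks in replicate 1 and 0.670% in replicate 2. Inside the region from 78976239, a weak H3K4me3 peak was called in both animals, with folds of 17.9 and 23.7 and FDRs of 3.47% and 4.32%. Inside that from 78962892, replicate 2 had an H3K4me3 peak at an FDR of 2.5% and replicate 1 had none.

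Above the sweep region, toward GLI3, came 2 more H3K27ac regions and a group of H3K27me3 regions. The H3K27ac region from 79155538 to 79158836 had 528 and 508 tags and folds of 27.7 and 28.2, the highest mean of the H3K27ac peaks at either locus. The one from 79105864 to 79108164 had 277 and 321 tags and folds of 24.8 and 27.7. Between them lay 3 H3K27me3 regions within 13.1 kb, from 79134410 to 79147464, which covered 11.9 kb and overlapped no active region of the joint lists. In replicate 1 alone, an H3K27ac peak from 79147381 to 79150149, with 371 tags and a fold of 21.8, met the upper end of this group. The largest of them, 7743 bp, was longer than 95.2% of the autosomal H3K27me3 regions. In the sweep table, the end of GLI3 that faces the sweep region falls between the sweep region and these regions.

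At that end, an H3K4me3 peak was called in both animals within 1 kb. It ran from 79027872 to 79028673 in replicate 1 with 90 tags and a fold of 22.7, and from 79027714 to 79028741 in replicate 2 with 151 tags and a fold of 28.3. Its FDRs of 3.17% and 2.63% kept it out of the joint list, and its folds were under the autosomal median of both libraries. No H3K27ac peak lay within 10 kb of it. At the end of GLI2 placed by the sweep table, no H3K4me3 peak lay within 10 kb in either animal, and an H3K27ac peak of replicate 1 from 185170877 to 185174510 (526 tags, 23.8-fold) lay within 5 kb. Exons and transcription start sites were not analysed here. Distances to these listed ends are therefore no distances to a gene start, and which H3K4me3 regions, those below the sweep regions included, stand at the start of GLI2 or GLI3 was not determined.

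Set side by side, the joint lists gave GLI3 more H3K27ac and GLI2 more H3K27me3. H3K27ac regions numbered 8 at GLI3 and 3 at GLI2, or 1.31 and 0.55 per 100 kb, and covered 4.43% and 3.14% of the windows. With a flank of 500 kb the H3K27ac difference (GLI3 minus GLI2) dropped from 0.77 to 0.14 regions per 100 kb, and that of the share covered turned from 1.30 to -0.056 percentage points. H3K27me3 regions numbered 4 at GLI3 and 9 at GLI2, or 0.66 and 1.64 per 100 kb, and covered 2.25% and 5.58%. H3K4me3 regions numbered 2 and 1 and covered 0.516% and 0.593%, so that the locus with more regions had slightly less of the window covered. The joint lists carry no values per animal, so these differences have no replicate error and were not tested.

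Against the autosomes, the H3K27me3 count of GLI2 was above the upper quartile of 4, and the counts of H3K4me3 and H3K27ac at both loci were within the quartiles. Of 4443 autosomal windows as long as the GLI2 window, 12.2% held at least 9 H3K27me3 regions, and the median was 1. For H3K27ac the median was 6 and 67.1% of these windows held at least 3, while for H3K4me3 it was 2 and 72.1% held at least 1. Of 4003 windows as long as that of GLI3, 32.3% held at least 4 H3K27me3 regions, 47.4% at least 8 H3K27ac regions and 61.1% at least 2 H3K4me3 regions. Around the other 633 sweep regions, 10.6% of the windows had the H3K27me3 density of GLI2 or more and 27.8% that of GLI3. For H3K27ac these shares were 67.5% and 53.6%, and for H3K4me3 74.1% and 64.0%. Windows around sweep regions can overlap each other, while the autosomal windows share only regions that cross an edge. Windows are not replicates of a locus, so these shares describe the genome and are not tests.

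**Figure D2:**
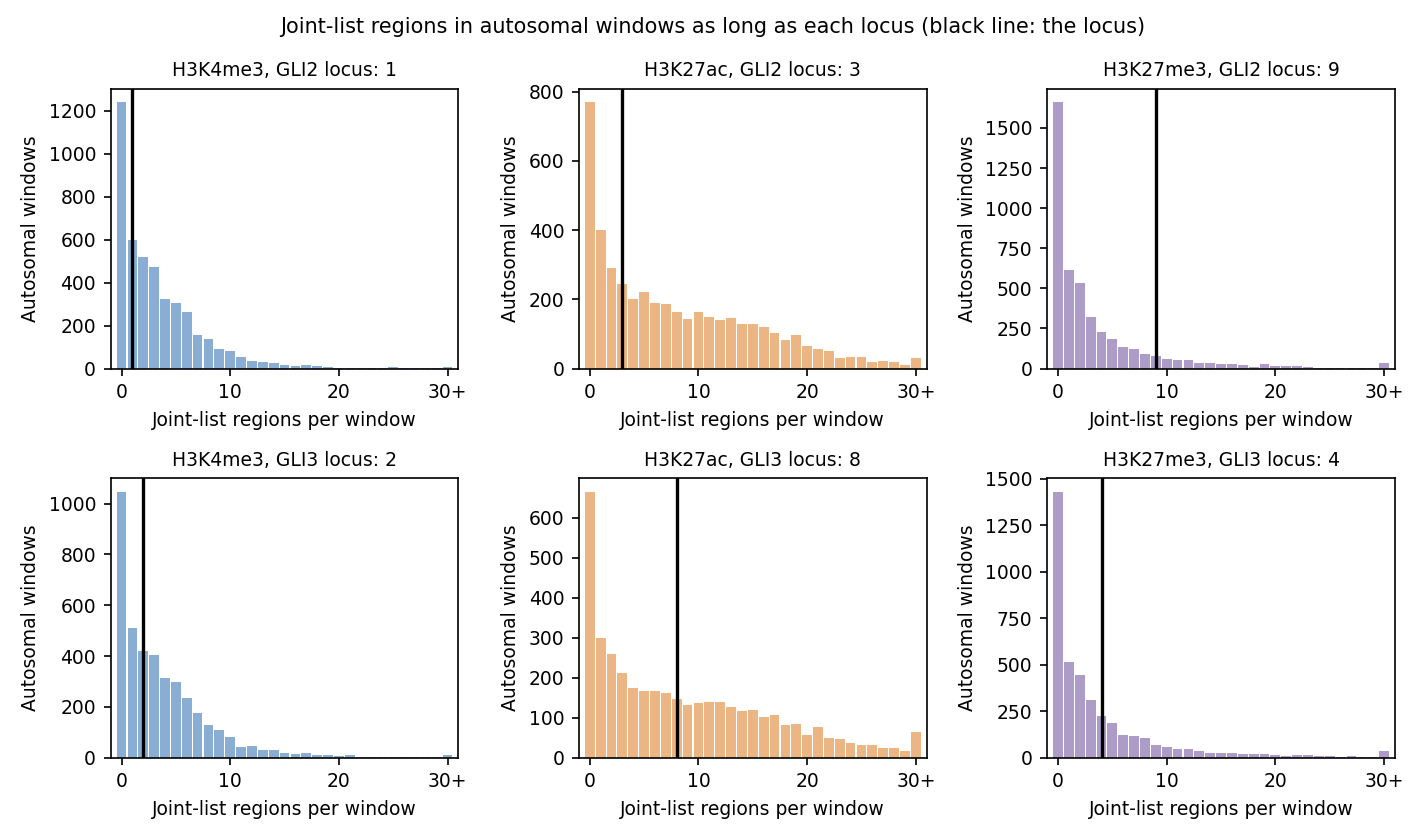
Number of regions of each joint list in autosomal windows as long as the GLI2 window (upper row) and the GLI3 window (lower row), with counts of 30 or more in the last bar; the black line is the count at the locus. The lines stand at 1, 3 and 9 regions for GLI2 and at 2, 8 and 4 for GLI3, and only that of H3K27me3 at GLI2 lies well above the median of 1.

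Peaks of the single libraries did not all follow the joint lists. With peaks at every FDR, H3K4me3 was denser at GLI2, with 2.55 peaks per 100 kb in replicate 1 and 1.64 in replicate 2 (2.09 ± 0.64, SD, n = 2), than at GLI3, with 0.98 and 1.31 (1.15 ± 0.23, SD, n = 2). The difference of GLI3 minus GLI2 was below 0 in both animals (-0.94 ± 0.87, SD, n = 2). Within an FDR of 1% it was 0.046. For H3K27ac, GLI3 had 1.64 peaks per 100 kb in each animal, while GLI2 had 2 in replicate 1 and 0.91 in replicate 2. The H3K27ac difference therefore ran in opposite directions in the 2 animals (0.18 ± 0.77, SD, n = 2), and it was smaller than its spread. When only peaks found in both animals were counted, it was 0.77, which repeats the joint list, since these peaks make up its regions. With 2 animals the smallest two-sided p of an exact test on paired differences is 0.5, so an exact test could not reach 0.05, and none was run.

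**Figure D3:**
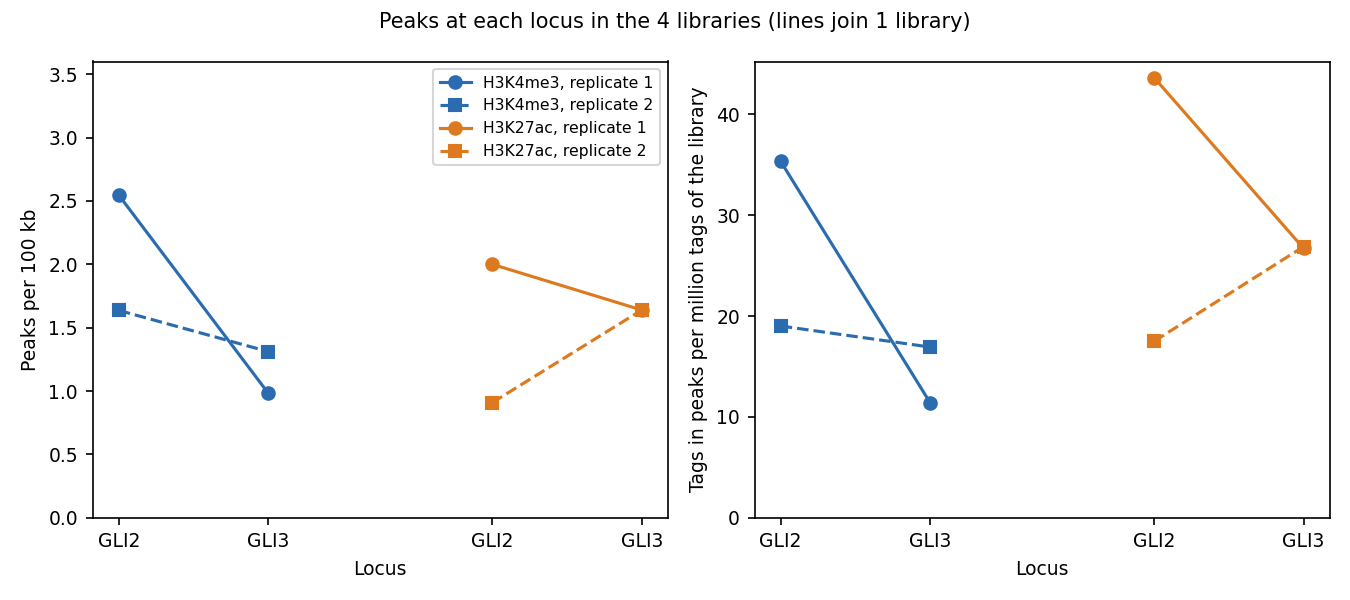
Peaks per 100 kb at every FDR (left) and tags in peaks per 1000000 tags of the library (right) at the GLI2 and GLI3 loci, with 1 line for each library. The H3K27ac lines meet at GLI3, at 1.64 peaks per 100 kb, and stand at 2 and 0.91 at GLI2, and both H3K4me3 lines fall from GLI2 to GLI3.

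Tags in H3K27ac peaks were close between animals at GLI3 and far apart at GLI2. At GLI3 these peaks held 26.7 and 26.9 of every 1000000 tags of the library in replicates 1 and 2, over 29.2 and 29.9 kb of peaks. At GLI2 they held 43.6 and 17.5, over 44.2 and 19.4 kb. A peak of replicate 1 there, of 801 tags from 184734179 to 184740052, lies mostly outside the window, and without it the value was 38.1 over 38.3 kb. Per kb of peak there were 142 and 132 tags at GLI2, or 143 in replicate 1 without that peak, and 132 and 131 at GLI3. For H3K4me3, peaks held 35.3 and 19.0 of every 1000000 tags at GLI2 over 24.0 and 13.7 kb, and 11.4 and 16.9 at GLI3 over 6.10 and 9.96 kb. H3K4me3 tags per kb of peak were 137 and 153 at GLI2 and 174 and 186 at GLI3, higher at GLI3 in both animals.

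Fold enrichments set the peaks beside all others of their library. At GLI2 it ran from 15.3 to 56.4 for H3K4me3 in replicate 1 and from 17.8 to 55.8 in replicate 2, and 3 of 14 and 3 of 9 peaks were above the autosomal median. At GLI3 it ran from 17.9 to 67.3 and from 21.5 to 73.6, and 3 of 6 and 4 of 8 were above it. For H3K27ac the median fold was 18.7 and 19.8 at GLI2 and 21.7 and 21.8 at GLI3, all under the autosomal medians of 24.7 and 24.6. Above these medians were 1 of 11 and 1 of 5 H3K27ac peaks at GLI2, and 3 of 10 and 4 of 10 at GLI3. By its definition the median leaves 50% of the peaks of a library above it.

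**Figure D4:**
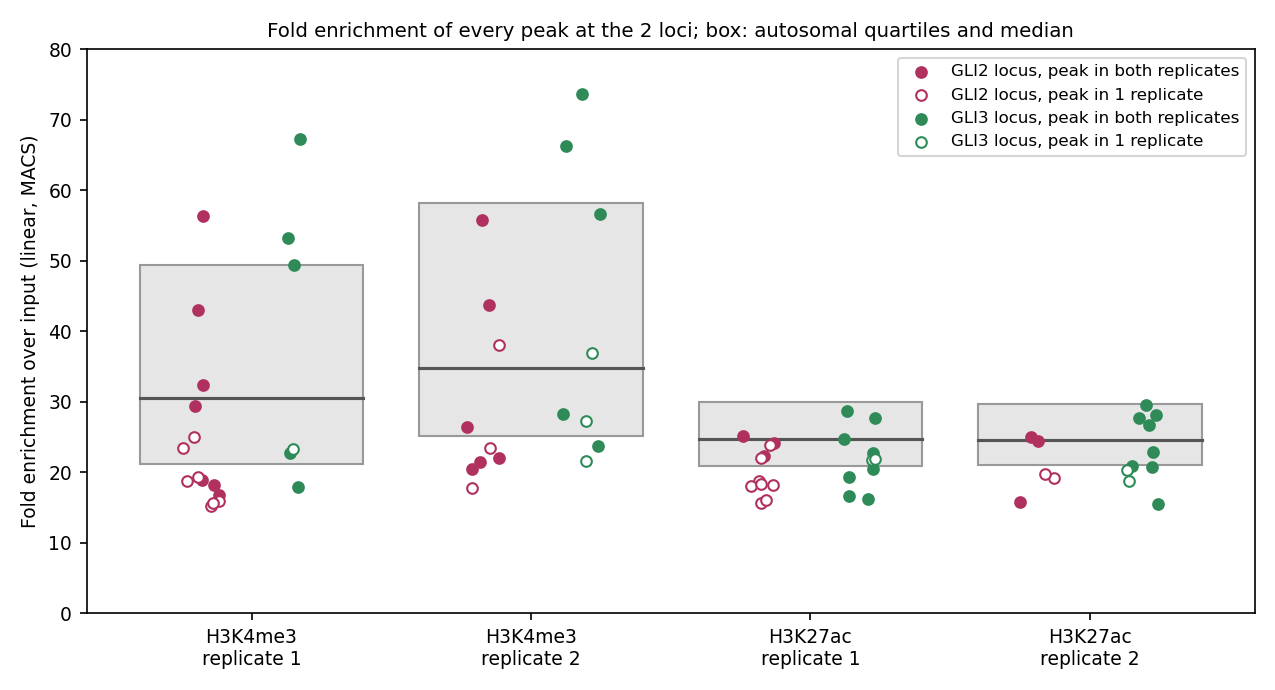
Fold enrichment over the input (linear, as MACS gives it) of every peak at the GLI2 and GLI3 loci in each library, with filled points for peaks that overlap a peak of the other replicate; grey boxes span the quartiles of all autosomal peaks of the library and the line in them is the median. The highest points are the H3K4me3 peaks of GLI3 at 67.3 and 73.6, and most H3K27ac points of GLI2 lie under the median.

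Other genes of the pathway could be placed only where the sweep table names them. Of a list of 39 Hedgehog pathway genes, 5 are named there as closest genes, GLI2, GLI3, BOC, BTRC and HAND2. They have 6 of the 635 sweep regions among them. The share of all genes named there was not computed, and GLI2 and GLI3 were chosen for their sweeps. No excess of the pathway among sweeps can therefore be read from this count. The window of BOC, a co-receptor of the ligand, on chromosome 1 from 176350001 to 176370000, held 6 H3K4me3, 16 H3K27ac and 3 H3K27me3 regions. BTRC, part of the ubiquitin ligase that marks GLI proteins for processing, had 6, 8 and 15 around its sweep region on chromosome 22 from 21440001 to 21460000. HAND2, a transcription factor of limb and heart development, had 2, 2 and 7 around its own on chromosome 2 from 105830001 to 105850000. These windows are 520 kb long. Per 100 kb, H3K27me3 was thus at 2.88 around BTRC, 1.35 around HAND2 and 0.58 around BOC, beside 1.64 around GLI2, 0.66 around the main GLI3 sweep region and 0.19 around the smaller one listed for GLI3, whose window overlaps the main one.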

How the data were processed

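H3K4me3 and H3K27ac ChIP-Seq of 2 fetuses and the pooled joint lists were used. Reads were mapped by the authors to Oar_v3.1, and MACS 1.4.2 was run per library (p-value limit 1e-05, at most 1 tag per position) against 1 input of 26651829 tags. For each peak the deposited files give the count of tags, a score from the p-value, the linear ratio over the input (fold enrichment) and an FDR in percent. The libraries held 92882463 and 109652707 tags for H3K4me3 and 144038222 and 145716523 for H3K27ac after duplicates were removed. The shallow input limits the precision of folds and FDRs. Beside counting error, counts of tags and peaks carry differences between libraries and in the length of the called peaks.

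The joint lists hold positions counted from 1, and their names give FDR limits of 1% for H3K4me3, 10% for H3K27ac and 5% for H3K27me3. On the files, the first 2 lists held exactly the shared peaks within these limits in both libraries, although the methods state stricter ones. Another 2 tables, of H3K27me3 in single libraries, match none of the labelled samples and were left out. H3K27me3 was sequenced on another instrument, the effect of which was not tested. Of the 31942 joint H3K27me3 regions, only 15430 lay on the autosomes. For H3K4me3 these were 15350 of 16098 and for H3K27ac 34899 of 35266. The reason for this difference between the lists was not tested.

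Overlaps of at least 1 bp were counted. Autosomal windows were laid end to end with the length of each locus. Sweep regions and closest genes came from the study's table of domestic sweeps, whose signed distances give the side of the gene. The gene order was checked by name in RefSeq (ARS-UI_Ramb_v3.0). There INHBB comes before and TFCP2L1 after GLI2, and C4H7orf25 comes before and INHBA after GLI3. Genome sequence and gene models of Oar_v3.1 were not used here, and the cell type markers listed for the tissue were not analysed. No test was run, since an exact test over 2 animals cannot reach 0.05. Replicate numbers follow the labels.

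Regions were named by a rule on position, strength and overlap: those in or nearest to the sweep regions, the strongest shared and the longest of each mark, those where H3K27me3 met an active mark, those nearest to the facing gene end, and all of a list with few. Peaks called in 1 replicate, and the pathway genes taken from the sweep table, were named after their values were seen. The loci, lists and alternatives (flank, midpoint, length, FDR, overlap and replicates) were chosen with earlier results of these data known. The overlap code was tested on simulated data. Python 3.11.15, numpy 2.4.6, pandas 2.3.3 and matplotlib 3.10.9 were used.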

Additional observations from a re-analysis of the deposited data

How the results depend on the processing

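The differences between the loci (GLI3 minus GLI2) were recomputed for 8 measures, giving 41 values. Of these, 32 kept their direction and stayed near the main value. Near meant within 1 SD of the animals' mean or, for the joint lists, within a 95% binomial interval of the counts. That interval is wide for so few regions. Several of the 32 equal the main value because the setting removed no entry, as with the midpoint rule in every joint list. A value from 1 of 2 animals always lies within 1 SD of their mean, so leaving out a replicate could only change the direction. With a flank of 100 kb, H3K27me3 was at -2.08 regions per 100 kb and -8.22 percentage points of coverage, both further toward GLI2. With 500 kb, the joint H3K27ac density was 0.14 in place of 0.77 per 100 kb, and coverage reversed for H3K4me3 (0.079 percentage points) and H3K27ac (-0.056), as did H3K27ac peaks per 100 kb (-0.022). Leaving out joint regions under 1 kb, which removes the shortest at GLI3, reversed the H3K4me3 density to -0.018 per 100 kb. H3K4me3 peaks per 100 kb reversed to 0.046 within the FDR of the joint list and were at -0.0089 within that of the methods, where fewer peaks are left by construction. With 1 replicate left out, H3K4me3 ran from -1.56 to -0.32 and H3K27ac from -0.36 (without replicate 2) to 0.73 (without replicate 1). H3K27me3 stayed below 0 throughout, though the midpoint and 1 kb settings removed none of its regions. The H3K27ac FDR of the methods left no peaks and gave no value. Each difference in library peaks is taken within an animal, so these values are already paired by replicate. For the joint lists, no paired analysis was possible because they carry no values per animal. No model was fitted to which a replicate block could be added. With 1 to 14 entries per list and locus, small differences could not be resolved, and the input held fewer tags than any library.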
